A study of Mus musculus with 8 samples.

Results

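The data describe 10 genes of Notch signalling and of the enteroendocrine lineage in Paneth cells of the mouse small intestine: the receptors Notch1 and Notch2, the ligand Jag1, the nuclear factor Rbpj, the target Hes1, the fate factors Neurog3 and Neurod1, the hormone gene Sct, and the granule protein genes Chga and Chgb. They were chosen by name and were matched by symbol to the gene identifiers of the deposited counts. All 10 were found among 55414 identifiers, and 8 of them were among the 10911 genes with enough counts to be tested between diets. The mice were C57BL/6J and received either standard chow (control, 4 mice) or zinc depleted food (zinc deficient, 4 mice) for 7 weeks. Paneth cells were purified from the small intestine of each mouse by flow cytometry, and RNA of the purified cells was sequenced as 1 library per mouse with a stranded mRNA kit. The study asked here which transcripts of these cells differ with the zinc content of the diet.

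Notch receptors are cleaved when a ligand of the Delta or Jagged family on a neighbouring cell binds them, and the freed intracellular part joins Rbpj on DNA and switches on genes such as Hes1. In intestinal crypts this signal keeps stem and progenitor cells out of the secretory fates, because Hes1 represses Atoh1, the factor that starts the Paneth, goblet and enteroendocrine programmes. Neurog3 commits a secretory progenitor to the enteroendocrine lineage, Neurod1 acts after it, and the mature cells store hormones such as secretin (Sct) in granules that contain chromogranin A (Chga) and chromogranin B (Chgb).

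The 8 libraries held between 8557690 and 12648005 counts, and a count of 0 in a library still allows up to 3 counts, which are 0.351 CPM (counts scaled to a library of 1000000) in the smallest and 0.237 CPM in the largest. Levels below are normalised CPM, for which the library size was first multiplied by its TMM factor. Control 1 stood apart with the highest TMM factor, 1.571, against 0.719 to 1.16 in the other 7 libraries. The 9 Paneth cell markers listed, which include Lyz1, Defa24 and Defa30, had counts in every mouse and summed to between 295300 and 847800 normalised CPM, with the lowest sum in control 1. Zinc deficient 3 stood apart in tuft cell markers, whose summed level was 478.9 normalised CPM against 26.5 to 123.8 in the other mice. In these bulk libraries, fewer cells of a type and less RNA per cell cannot be told apart.

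Levels of different genes can be compared only per length, so TPM, which correct for gene length, were computed from the summed exon length of each gene. Sct was the most abundant of the 10 genes, at 25.2 ± 5.24 TPM (SD, n = 8 mice). Hes1 followed at 2.38 ± 1.30 TPM and Chgb at 1.52 ± 1.01 TPM. Below them, Notch1, Jag1, Rbpj, Chga, Neurog3 and Notch2 had mean levels between 0.182 and 0.446 TPM, and Neurod1 was the lowest at 0.0363 ± 0.0467 TPM.

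Neighbours in this order were compared within each mouse by the difference of log2(TPM + 0.1). Sct exceeded Hes1 in 8 of 8 mice by 3.48 ± 0.61 (SD), and Hes1 exceeded Chgb in 8 of 8 mice by 0.79 ± 0.75 (exact two-sided sign-flip permutation test, adjusted p = 0.0234 for each over 9 neighbouring pairs). Chgb exceeded Notch1 in 7 of 8 mice (difference 1.34 ± 0.81, adjusted p = 0.0352, exact test), and Notch2 exceeded Neurod1 in 8 of 8 mice (difference 1.03 ± 0.65, adjusted p = 0.0234, exact test). The 5 steps between neighbours from Notch1 to Notch2 did not differ beyond the spread over mice, with adjusted p between 0.464 and 0.773 in the exact test. The smallest p that 8 mice allow in this test is 0.00781.

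**Figure D1:**
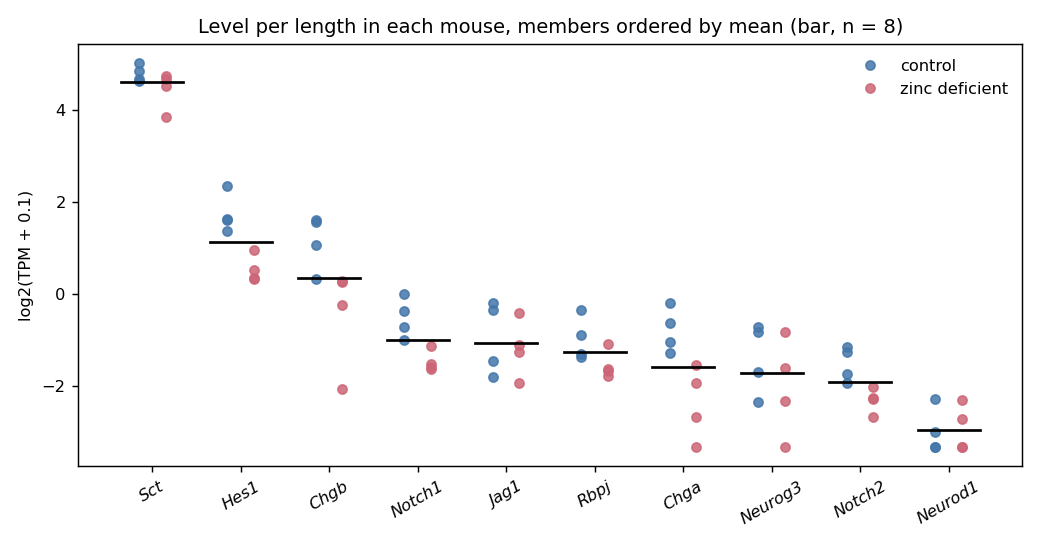
Level per length, log2(TPM + 0.1), of the 10 genes in each mouse, ordered by the mean level over 8 mice (bar), with control mice in blue and zinc deficient mice in red. Sct (mean 25.2 TPM) lies above every other gene in all 8 mice, Hes1 and Chgb follow, and the points of the next 6 genes overlap.

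Among the ligands, Jag1 is a minor transcript in these libraries (chromosome 2, 136923373 to 136958693 on GRCm39, minus strand, 26 exons in the canonical transcript). Jag1 was at 3.07, 4.18, 2.14 and 1.48 normalised CPM in control mice 1 to 4 and at 1.29, 4.17, 4.23 and 2.81 in zinc deficient mice 1 to 4. The lowest and the highest mouse were both zinc deficient, and the diets overlapped throughout. Zinc deficient against control, its log2 fold change was 0.18 with a 95% interval of -0.64 to 1.00 and an adjusted p of 0.923 (edgeR's quasi-likelihood test, Benjamini-Hochberg adjustment over all genes tested). Its sign was not stable: it was -0.23 when libraries were scaled by their totals alone, and -0.01 without control 4 or without zinc deficient 3. Per length, the Delta ligands were more abundant than Jag1 in 8 of 8 mice, Dll1 by 2.96 ± 0.44 and Dll4 by 3.46 ± 0.55 on the scale of log2(TPM + 0.1). Dll1 and Dll4 are the ligands that Paneth cells are known to present to neighbouring stem cells. Their log2 fold changes between diets were -0.34 for Dll1 (adjusted p = 0.683, edgeR) and -0.30 for Dll4 (adjusted p = 0.641, edgeR).

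The receptors Notch1 and Notch2 had lower mean levels in zinc deficient mice. Notch1 (chromosome 2, 26347915 to 26406675 on GRCm39, minus strand, 34 exons) was at 8.52, 9.75, 7.69 and 9.64 normalised CPM in control mice 1 to 4 and at 4.42, 6.82, 5.58 and 4.77 in zinc deficient mice 1 to 4. Every control mouse was above every zinc deficient mouse. Between diets, Notch1 had a log2 fold change of -0.73 ± 0.21 (SE), with a 95% interval of -1.17 to -0.28. Its unadjusted p was 0.00302 and its adjusted p over all genes was 0.183 in edgeR's test, so Notch1 was not called. Over the 17 alternative settings of the fit, the log2 fold change of Notch1 ranged from -1.10 to -0.64 and its adjusted p from 0.131 to 0.481.

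Notch2 is on chromosome 3 (97920800 to 98057677 on GRCm39, plus strand) and also has 34 exons. Its levels were 2.64, 3.61, 3.03 and 2.44 normalised CPM in control mice 1 to 4 against 0.863, 2.27, 1.36 and 2.43 in zinc deficient mice 1 to 4. The diets were separate by a very small margin, since control 4 was just above zinc deficient 4. Its log2 fold change was -0.76 ± 0.38 (SE), the 95% interval of -1.55 to 0.03 included 0, and the adjusted p was 0.507 (edgeR). Within a mouse, Notch1 was above Notch2 per length in 8 of 8 mice, by 0.92 ± 0.27 on the log2 scale. Notch4, which is best known from vessel endothelium, was above Notch1 in 8 of 8 mice by 1.18 ± 0.33, and Notch3 had 11 counts in all 8 mice together. Of the 8 stromal and vessel markers listed, 5 had no count in any mouse, among them the endothelial Cdh5, the endothelial Pecam1 had 3 counts, and the summed level reached at most 0.505 normalised CPM.

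The nuclear factor Rbpj, the DNA-binding partner of the cleaved receptors (chromosome 5, 53623494 to 53814704 on GRCm39, plus strand), was at 5.82, 5.74, 5.29 and 4.98 normalised CPM in control mice 1 to 4 and at 3.88, 4.67, 5.18 and 4.12 in zinc deficient mice 1 to 4. Only zinc deficient 3 reached the range of the control mice. Rbpj had a log2 fold change of -0.29 with a 95% interval of -0.77 to 0.19 and an adjusted p of 0.722 (edgeR).

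The target Hes1, a repressor that the Notch signal induces directly, had the lowest p-value of the 8 genes tested. Hes1 (chromosome 16, 29882134 to 29886643 on GRCm39, plus strand, 4 exons) was at 11.2, 10.2, 11.5 and 13.5 normalised CPM in control mice 1 to 4 and at 8.42, 7.45, 4.94 and 5.89 in zinc deficient mice 1 to 4. The diets did not overlap. The log2 fold change of Hes1 was -0.80 ± 0.21 (SE), with a 95% interval of -1.24 to -0.36, an unadjusted p of 0.00116 and an adjusted p of 0.106 (edgeR). Over the 17 alternative settings, its log2 fold change ranged from -1.16 to -0.67 and its adjusted p from 0.0383 to 0.300, and 1 setting, the fit without an expression filter, called it.

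**Figure D2:**
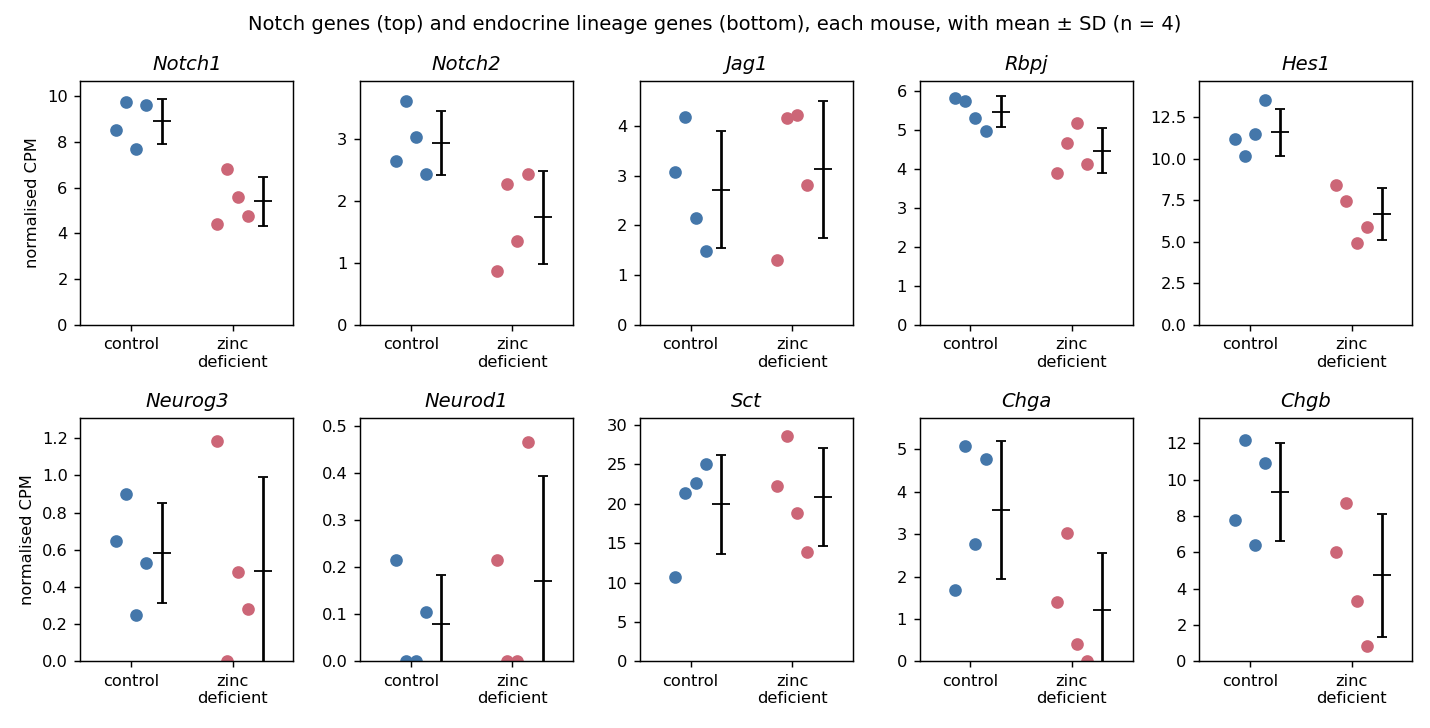
Normalised CPM of each of the 10 genes in each mouse (points, control in blue and zinc deficient in red, jittered sideways), with the mean and SD of 4 mice as a black bar beside each diet. Notch1 and Hes1 show a gap between diets, Notch2 nearly touches (2.44 against 2.43), and the other genes overlap.

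Of the 8 genes tested, 0 were called at an adjusted p under 0.05, where 0.403% of all genes tested were called. An unadjusted p under 0.05 was found for 2 of the 8, Notch1 and Hes1, where 10.5% of all genes tested had one. The diets did not overlap for 3 of the 8 (Notch1, Notch2 and Hes1), all lower in zinc deficient mice and 0 higher, where 6.09% of all genes tested did not overlap, 3.79% lower and 2.3% higher in zinc deficient mice. The median log2 fold change of the 8 was -0.74, with 6 of 8 below 0, beside -0.005 over all genes tested. For Notch1, Notch2 and Hes1 the exact two-sided permutation test over mice gave p = 0.0286 each, the smallest that 4 against 4 mice allow. Diets that do not overlap always give this value, so it adds nothing to the count of genes without overlap. When libraries were scaled by their totals alone, the median over all genes moved to -0.37 and 9706 of the 10911 genes were below 0 (5537 with TMM). Under that scaling all 8 genes were below 0, with a median of -1.13. Notch1, Notch2 and Hes1 still did not overlap, and neither did Chga, which overlapped with TMM. The share of all genes without overlap was not computed for that scaling.

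**Figure D3:**
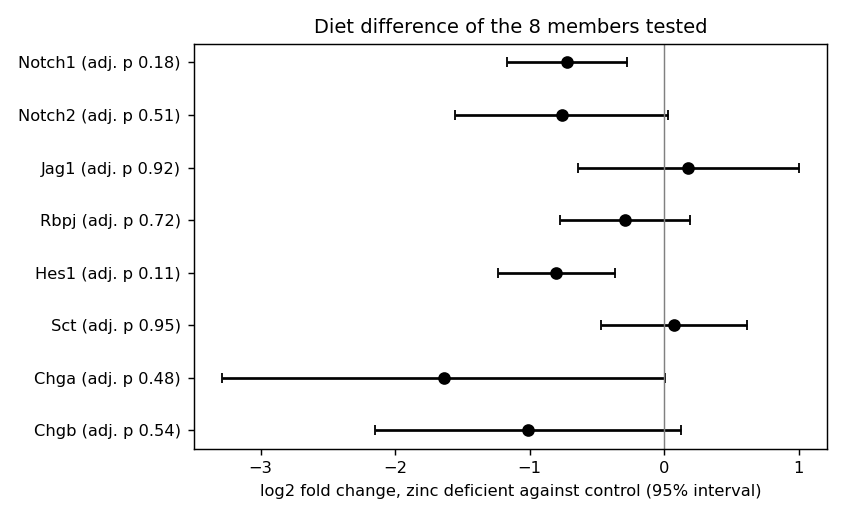
Log2 fold change between diets, zinc deficient against control (point), with its 95% interval (bar), for the 8 genes tested with edgeR, and the p-value adjusted over 10911 genes beside each name. The intervals of Notch1 (-1.17 to -0.28) and Hes1 (-1.24 to -0.36) lie below 0, and those of the other 6 genes include it.

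The rest of the pathway was described from lists of genes. Of 9 ligands and receptors, 8 were tested and 0 were called, with a median log2 fold change of -0.29. Of 27 genes for glycosylation, trafficking and cleavage, 23 were tested and 0 were called, with a median of -0.03. Among their most abundant members were Ncstn (log2 fold change -0.03), which belongs to the gamma-secretase that cuts the receptor, and the ubiquitin ligases Mib1 (0.11) and Itch (-0.07). Of 18 genes of the nuclear complex and its corepressors, 17 were tested and 0 were called, with a median of -0.07, and the corepressor genes Ctbp1 (0.01) and Ncor1 (-0.07) were near that median. Receptor processing and nuclear cofactors therefore had medians close to that of all genes.

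Of 15 genes listed as Notch targets, 10 were tested and 0 were called, 9 of the 10 were lower in zinc deficient mice, and the median log2 fold change was -0.55. The lower genes included Id1 (-1.03), Id2 (-0.09) and Id3 (-0.71). Whether the listed genes follow the Notch signal in these cells was not tested. An unadjusted p under 0.05 was found for 5 of the 10, where 10.5% of all genes tested had one. The diets did not overlap for 4 (Hes1, Nrarp, Olfm4 and Bhlhe40), all lower in zinc deficient mice, where 3.79% of all genes tested were lower without overlap. Bhlhe40 overlapped in CPM of the library totals. Olfm4, a marker of crypt stem cells, was at 1345 ± 256 normalised CPM in control mice and 693 ± 243 in zinc deficient mice (SD, n = 4 each), a log2 fold change of -0.96 with an adjusted p of 0.108 (edgeR). Nrarp, which encodes a feedback inhibitor of Notch, had a log2 fold change of -0.75 and an adjusted p of 0.220 (edgeR). Hes6, whose product is known to oppose Hes1, was above Hes1 per length in 8 of 8 mice by 2.15 ± 0.45 on the log2 scale, and its log2 fold change between diets was -0.03. Of the other Hes and Hey genes listed, Hes3, Hey1 and Hey2 had no count in any mouse.

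Of 15 secretory fate factors, 14 were tested and 0 were called, with a median log2 fold change of 0.10. Atoh1 and Spdef, a factor of Paneth and goblet cell maturation, were the 2 of 14 whose diets did not overlap. Both were higher in zinc deficient mice, where 2.3% of all genes tested were higher without overlap. In CPM of the library totals both overlapped. An unadjusted p under 0.05 was found for 2 others of the 14, where 10.5% of all genes tested had one. Both were lower in zinc deficient mice, Foxa2 (log2 fold change -0.54, adjusted p = 0.256, edgeR) and Ascl2 (-0.78, adjusted p = 0.286, edgeR). Ascl2 is also on the list of stem cell markers. Atoh1 was at 63.9 ± 5.18 normalised CPM in control mice and 75.8 ± 3.76 in zinc deficient mice, a log2 fold change of 0.25 (adjusted p = 0.532, edgeR). That of Spdef was 0.28 (adjusted p = 0.513, edgeR). When libraries were scaled by their totals alone the fold change of Atoh1 was -0.10, and 13 of the 14 factors were below 0. The most abundant factors of the list, Bhlha15 and Xbp1, which serve the secretory apparatus, had log2 fold changes of 0.20 and -0.03.

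Markers of stem cells and of dividing cells were examined beside Notch1 and Hes1. All 8 stem cell markers listed had counts and were lower in zinc deficient mice, 0 were called, and their median log2 fold change was -0.65. Their summed level was between 1738 and 2304 normalised CPM in control mice and between 796.1 and 1453 in zinc deficient mice, most of it Olfm4, which is also on the list of targets. All 8 proliferation markers were lower too, with a median of -0.85. Their summed level was 132.4 to 156.0 in control mice and 78.8 to 99.8 in zinc deficient mice. Of the 8, 2 were called, where 0.403% of all genes tested were called. Top2a, a topoisomerase of dividing cells, fell by 1.18 on the log2 scale (adjusted p = 0.0229, edgeR) and Mcm6, a replication helicase subunit, fell by 0.88 (adjusted p = 0.0376, edgeR), while Pcna had a log2 fold change of -0.05. Top2a was called in 12 of the 17 alternatives, losing the call with library totals alone and without control 2, control 4, zinc deficient 2 or zinc deficient 4. Mcm6 was called in 9 of the 17, losing the call with library totals alone, with the fit that is not robust, and in each fit that left out 1 mouse except those without control 3 or zinc deficient 1. The 9 Paneth cell markers were all higher in zinc deficient mice with TMM scaling and 0 were called, with a median of 0.46. An unadjusted p under 0.05 was found for 3 of the 9, where 10.5% of all genes tested had one. The diets did not overlap for 2 of the 9, Ang4 and Mptx2, where 2.3% of all genes tested were higher without overlap. In CPM of the library totals these genes did not overlap either. With library totals alone the median was 0.12 and 3 of the 9 (Defa30, Itln1 and Habp2) were lower. The part of stem, dividing and Paneth cells in the values of Notch1 and Hes1 was not tested.

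Other cell types were checked in the same way. Of 8 goblet cell markers, 6 were higher (4 with library totals alone) and 0 were called, and their summed level was 4714 to 11460 normalised CPM in control mice and 7950 to 15240 in zinc deficient mice. Of 10 tuft cell markers, 8 were tested, all 8 were higher and 0 were called, and without zinc deficient 3, the mouse that stood apart, the log2 fold changes of Notch1 and Hes1 were -0.74 and -0.67. The 9 enterocyte markers summed to 247.2 to 351.6 in control mice and 200.1 to 395.0 in zinc deficient mice, with 0 called. Of 8 immune markers, 3 had no count in any mouse, and the sums were 36.1 to 91.4 and 46.5 to 66.2. Of 8 markers of enteric neurons and glia, 4 had no count, and the sums were 4.92 to 8.57 and 5.89 to 9.71, most of it Ret. Without control 1, the library with the highest TMM factor, the log2 fold changes of Notch1 and Hes1 were -0.75 and -0.82.

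In the enteroendocrine lineage, the fate factor Neurog3 was close to the limit of detection (chromosome 10, 61968862 to 61970766 on GRCm39, plus strand, 2 exons). It had 12, 11, 2 and 5 counts in control mice 1 to 4 and 11, 0, 6 and 3 counts in zinc deficient mice 1 to 4. These are 50 counts in all, in 7 of 8 mice, and a mean of 0.534 ± 0.379 normalised CPM (SD, n = 8). The highest level, 1.19 normalised CPM, and the lowest, 0, were both in zinc deficient mice, and Neurog3 was not among the genes tested. On the opposite strand, Fam241b overlaps Neurog3 and had 499 counts. The kit keeps the strand, but whether counting used it is not given in the sources used here, so reads of the overlap cannot be assigned with certainty.

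Neurod1, which is switched on after Neurog3 (chromosome 2, 79282865 to 79287294 on GRCm39, minus strand, 2 exons), had 4, 0, 0 and 1 counts in control mice 1 to 4 and 2, 0, 0 and 5 counts in zinc deficient mice 1 to 4. With 12 counts in 4 of 8 mice, a difference between diets was not detectable at this depth. A fit without an expression filter gave log2 fold changes of -0.28 ± 0.80 (SE) for Neurog3 and 0.85 ± 1.33 for Neurod1, with adjusted p of 0.925 and 0.836 (edgeR). Transcripts that define endocrine progenitors thus took few counts in these purified cells.

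Sct, the gene of the hormone secretin, was by contrast counted in every mouse (chromosome 7, 140858243 to 140859052 on GRCm39, minus strand, 4 exons). It was at 10.7, 21.4, 22.6 and 25.0 normalised CPM in control mice 1 to 4 and at 22.2, 28.5, 18.8 and 13.8 in zinc deficient mice 1 to 4. Control 1 was the lowest of all 8 mice and zinc deficient 2 the highest, and the diets overlapped. The log2 fold change of Sct was 0.07 with a 95% interval of -0.47 to 0.61 and an adjusted p of 0.954 (edgeR). Its sign was negative without control 1 (-0.15), without zinc deficient 2 (-0.11) and with scaling by library totals alone (-0.23).

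Chga and Chgb encode the chromogranins, acidic proteins of hormone granules. Chga (chromosome 12, 102520484 to 102531300 on GRCm39, plus strand, 8 exons) had 31, 62, 22 and 45 counts in control mice 1 to 4 and 13, 24, 5 and 0 counts in zinc deficient mice 1 to 4. In normalised CPM these were 1.67, 5.08, 2.77 and 4.76 against 1.40, 3.03, 0.399 and 0. Zinc deficient 4 had no count, which allows up to 0.281 normalised CPM (3 counts in that library), while zinc deficient 2 was above 2 of the control mice. In CPM of the library totals the diets did not overlap. The lowest control mouse was then at 2.57 and the highest zinc deficient mouse at 2.18. The log2 fold change of Chga was -1.64 ± 0.75 (SE), with a 95% interval of -3.29 to 0.01, and its adjusted p was 0.481 (edgeR). Chga passed the expression filter through its level in control mice. The estimate depended on single mice, with -2.61 without zinc deficient 2 and -1.20 without zinc deficient 4, and limma-voom gave -2.64. The fit without an expression filter called it (adjusted p = 0.0256, edgeR).

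Chgb (chromosome 2, 132622464 to 132637904 on GRCm39, plus strand, 5 exons) was, like Chga, highest in control 2 and lowest in zinc deficient 4. Its levels were 7.77, 12.2, 6.43 and 10.9 normalised CPM in control mice 1 to 4 and 6.04, 8.71, 3.35 and 0.842 in zinc deficient mice 1 to 4. Zinc deficient 2 was again above 2 of the control mice. The log2 fold change of Chgb was -1.02 ± 0.51 (SE), with a 95% interval of -2.15 to 0.12 and an adjusted p of 0.536 (edgeR), and it was -0.65 without zinc deficient 4. Neither chromogranin was called in the main fit, where the unadjusted p was 0.0511 for Chga and 0.0749 for Chgb (edgeR).

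Whether the genes vary together from mouse to mouse was examined over the 8 mice with log2(normalised CPM + 1), by exact two-sided permutation of the pairings and adjustment over all 45 pairs of the 10 genes. At an adjusted p under 0.05, 1 of the 45 pairs passed, Chga with Chgb. Pearson's r was 0.940 (exact permutation p = 0.000223, adjusted p = 0.010) and Spearman's rho was 0.976 (exact permutation p = 0.000397, adjusted p = 0.0179, n = 8). Without the 2 mice farthest from the median of Chga, r was 0.872, and with CPM of the library totals it was 0.925. With each diet centred on its own mean, r was 0.903, and its exact permutation p of 0.00221 gave an adjusted p of 0.0714. The 4 mice of a diet are too few for a correlation within it.

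No other pair of the 5 endocrine genes passed this test. For Sct with Chga, r was 0.563 and rho was 0.571 (exact permutation p = 0.142 and 0.151, adjusted p = 0.490 and 0.486), and r was 0.862 with each diet centred (adjusted p = 0.0714, exact permutation). For Sct with Chgb, r was 0.462 and rho was 0.452 (exact permutation p = 0.243 and 0.268, adjusted p = 0.501 and 0.526). Neurog3 had an r of 0.0967 and a rho of 0.0952 with Chga (exact permutation p = 0.817 and 0.840, adjusted p = 0.883 and 0.900), and an r of 0.233 with Chgb (exact permutation p = 0.574, adjusted p = 0.876). Notch1, Notch2 and Hes1 did not overlap between diets, so no r over all mice is given for them, and with each diet centred Notch1 and Hes1 had an r of -0.0621 (exact permutation p = 0.885, adjusted p = 0.983, n = 8).

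**Figure D4:**
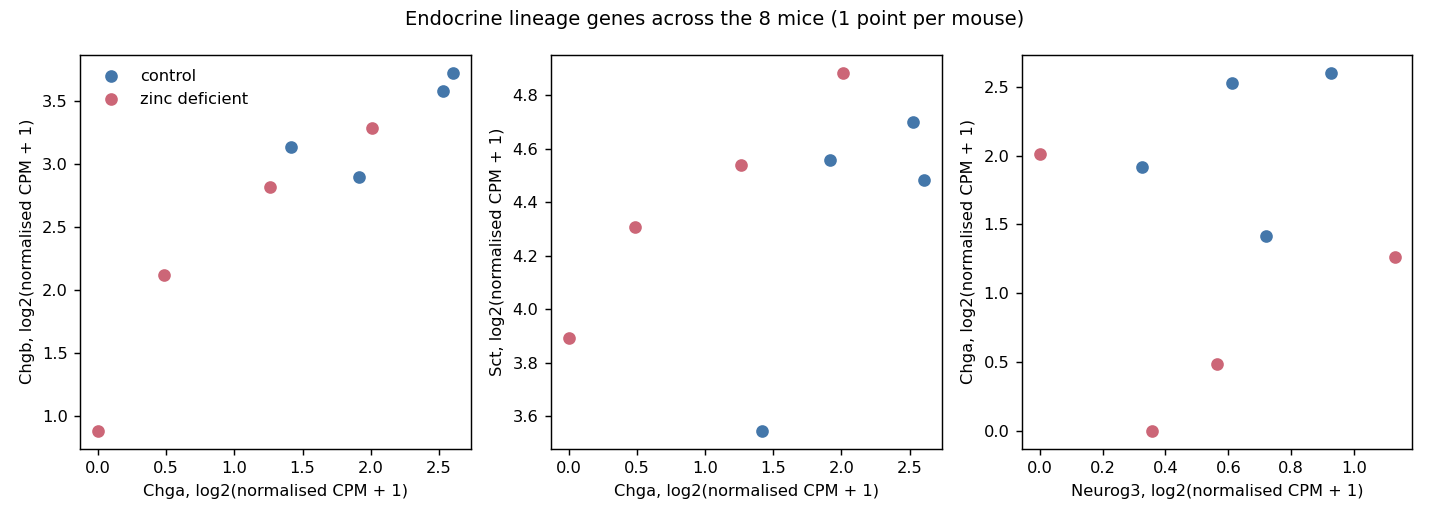
Levels of endocrine lineage genes against each other as log2(normalised CPM + 1), 1 point per mouse (n = 8), control in blue and zinc deficient in red. Chgb increases with Chga over both diets (r = 0.940), Sct and Chga (r = 0.563) show control 1 low in Sct, and Chga shows no order with Neurog3 (r = 0.0967).

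The 120 bases before the annotated starts of Chga and Chgb are shown, from RefSeq on GRCm38.p6, a build other than that of the gene positions above. Both run 5′ to 3′ on the plus strand, Chga from chr12:102554821-102554940 and Chgb from chr2:132781522-132781641. Capitals mark the core of the cAMP response element, TGACGT, searched on both strands, which in Chgb overlaps its own reverse match as TGACGTCA.
Chga: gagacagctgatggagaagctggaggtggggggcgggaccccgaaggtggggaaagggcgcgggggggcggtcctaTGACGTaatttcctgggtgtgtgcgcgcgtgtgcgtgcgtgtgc
Chgb: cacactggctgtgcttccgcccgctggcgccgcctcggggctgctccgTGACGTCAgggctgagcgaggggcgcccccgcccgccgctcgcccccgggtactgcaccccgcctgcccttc

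The core began 44 bases before the annotated start in Chga, and 72 bases before it in Chgb with the reverse match 70 bases before it. Of 32851 promoters searched over the 250 bases before the start, 6.47% held the core on either strand. Of the 10 genes, 9 had a promoter in the reference table (all but Hes1) and 2 of the 9, Chga and Chgb, held it. The Rbpj site GTGGGAA, searched on both strands over the same 250 bases, was in 5.42% of all promoters and in 0 of the 9, which do not include Hes1. A match describes letters in this window and not a bound site, and binding was not measured. Any part of these letters in the correlation of Chga with Chgb was not tested.

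The genes whose pattern over the 8 mice was most like that of Chga, by Pearson's r of log2(normalised CPM + 1) among the genes tested, were Angpt2 (r = 0.991), Zfp747l1 (0.965), Flrt3 (0.959), Cbx6 (0.957) and Shisa2 (0.954). With each diet centred, their r lay between 0.917 for Shisa2 and 0.985 for Angpt2. The genes most like Hes1 by the same rule were Shmt1, Fam149a, Smo, Ctnnal1 and Lhpp. Since the diets did not overlap in Hes1, only the values with each diet centred are given, which were 0.950 for Shmt1, 0.913 for Fam149a, 0.892 for Smo, 0.821 for Ctnnal1 and 0.795 for Lhpp. These are descriptions over 8 libraries that share the scaling of each mouse, chosen as the highest of 10911 genes, and carry no test.

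The other genes of the enteroendocrine programme were described in the same way. Of 62 genes listed (22 fate factors, 17 hormone and amine genes and 23 granule and prohormone genes), 10 had no count in any mouse, 16 had counts in every mouse, and 44 had a mean under 1 normalised CPM. The 18 with a mean of 1 or more are 29.0% of the list, beside 19.5% of all 55414 identifiers. The identifiers also include non-coding genes such as lncRNAs and miRNAs, so these shares are of unlike sets of genes. The 10 without a count included the hormone genes Pyy, Nts, Insl5, Gal and Vip and the granule genes Scg3 and Vgf. The endocrine markers fixed for a check of cell type, 16 genes that include Sct, Chga and Chgb, summed to 26.5 to 45.7 normalised CPM in control mice and 17.2 to 41.8 in zinc deficient mice, with 0 of 3 tested called.

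Of the 23 granule and prohormone genes, Slc18a1 and Pcsk1 had higher mean levels per length than Chgb. Slc18a1, a vesicular monoamine transporter, was above Chgb per length in 8 of 8 mice by 2.03 ± 1.16 on the log2 scale. The hormone gene Sct was above Chgb in 8 of 8 mice by 4.27 ± 0.90. Between diets, Slc18a1 (log2 fold change 0.08), Pcsk1, a prohormone convertase (-0.03), and Pam, which amidates peptide hormones (0.01), were near the median of all genes. Of the 23 genes, 7 were tested and 0 were called, with a median log2 fold change of -0.75. Syt13, a synaptotagmin, was the 1 of the 7 whose diets did not overlap, where 3.79% of all genes tested were lower without overlap. It was at 5.23 ± 1.30 normalised CPM in control mice and 1.87 ± 1.42 in zinc deficient mice (adjusted p = 0.306, edgeR). Zinc deficient 4, the mouse without a count of Chga, had 1 count of Syt13.

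Of the 17 hormone and amine genes, 3 were tested and 0 were called, with a median of 0.07: Sct, Ddc, an enzyme of amine synthesis (0.07), and Adm2 (-0.20). Ghrl, the gene of ghrelin, was not among the genes tested because too few mice had enough counts. Control 4 had 489 counts of Ghrl (51.8 normalised CPM) and zinc deficient 4 had 42 counts (3.93 normalised CPM), while the other 6 mice had 0 to 2 counts. In control 4, Chga and Chgb were at 4.76 and 10.9 normalised CPM, within the range of the other control mice.

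Of the 22 endocrine fate factors, 7 were tested, with a median of -0.49. Of the 7, 1 was called (Sox4), where 0.403% of all genes tested were called. Sox4 was also the 1 of the 7 whose diets did not overlap, where 3.79% of all genes tested were lower without overlap. Sox4, a factor of crypt progenitors that also takes part in enteroendocrine and tuft cell differentiation, was at 24.4, 21.6, 21.1 and 23.8 normalised CPM in control mice 1 to 4 and at 13.2, 11.4, 16.1 and 13.3 in zinc deficient mice 1 to 4. Every control mouse was above every zinc deficient mouse. Sox4 fell by 0.75 ± 0.16 (SE) on the log2 scale, with an adjusted p of 0.0484 (edgeR). The call was close to the threshold, with adjusted p of 0.00738 to 0.171 over 17 alternatives and a call in 5 of them, and of the 8 fits that each left out 1 mouse only that without zinc deficient 3 called it. The stem cell and proliferation markers given above were lower in the same mice, and their part in the value of Sox4 was not tested. Nkx2-2, a fate factor that enteroendocrine cells need, was at 8.61 ± 1.45 and 6.09 ± 1.71 normalised CPM in the control and zinc deficient mice, a log2 fold change of -0.49 (adjusted p = 0.490, edgeR).

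**Figure D5:**
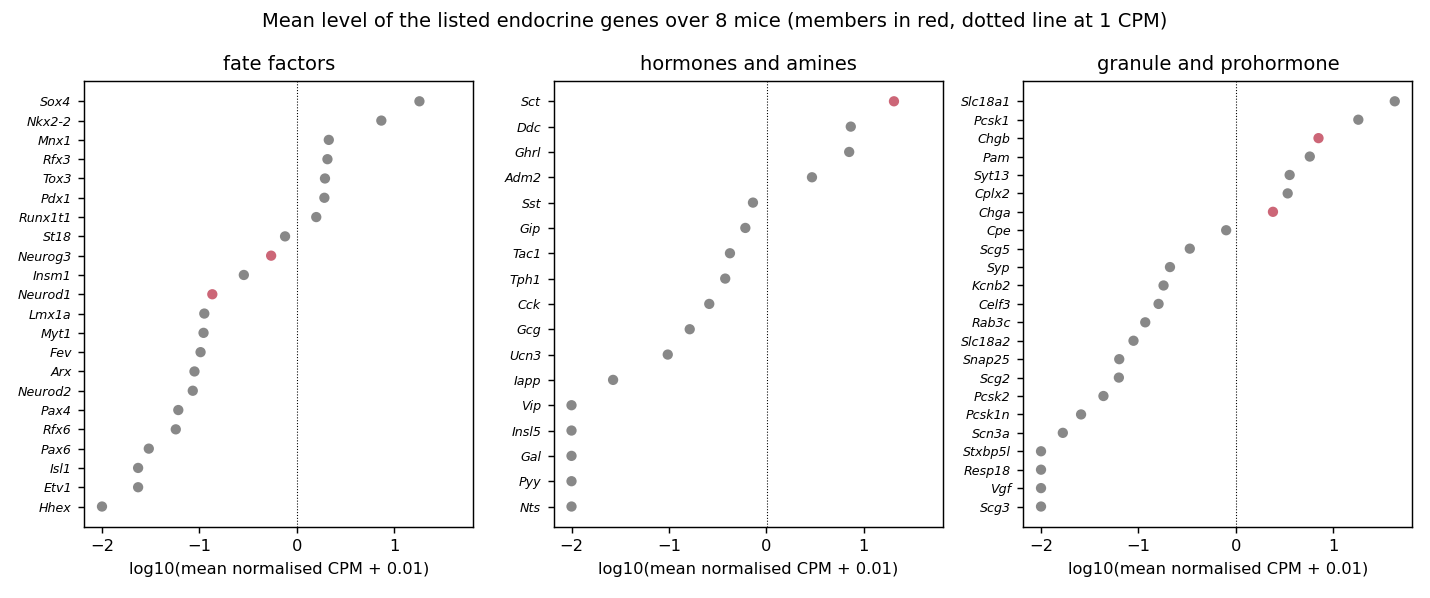
Mean level over 8 mice, log10(mean normalised CPM + 0.01), of the 62 endocrine genes in 3 panels (fate factors, hormones and amines, granule and prohormone genes), with the genes followed here in red, the others in grey and a dotted line at 1 normalised CPM. Points left of the line are the genes with means under 1 normalised CPM, 44 of 62, and the 10 at -2 had no count.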

How the data were processed

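RNA of Paneth cells sorted from 8 mice, 4 per diet, was sequenced, and the titles number the mice 1 to 4 within each diet. The table the authors deposited holds raw counts, whole numbers for each Ensembl identifier, with no normalisation. The submitters' processing notes name FastQC 0.12.0, STAR 2.7.0a, DESeq2 and build mm39, without their roles. How reads were counted (program, annotation, strand setting, reads with several alignments) is not given in the sources used here. Identifiers were named with GENCODE M39 on GRCm39, where 54749 were found and 665 were not, and of 74 symbols on several identifiers the one with the most counts kept the symbol. There were 0 columns of other samples. The 10 genes and all gene lists were chosen with earlier results of these data known.

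Diets were compared on the deposited counts with edgeR 4.0.16 in R 4.3.3: its expression filter (10911 genes), TMM scaling, the robust quasi-likelihood test without a block for replicate number, and p-values adjusted after Benjamini and Hochberg, called under 0.05. Of the 10911 genes, 44 were called, and 1142 had an unadjusted p under 0.05. Library sizes were 8557690 to 12648005 counts, and intervals and limits that rest on a count cover counting error only. TPM used the summed exon length and a pseudocount of 0.1 on the log2 scale, and correlations a pseudocount of 1 normalised CPM. TPM are not scaled with TMM and were compared only within a mouse.

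On simulated counts with the means and library sizes of this comparison (10669 genes, 200 of them changed), 97.9% of genes changed 4-fold and 63.6% of those changed 2-fold were called, and of the 173 calls 8.67% fell on genes left unchanged. Alternatives were other scalings (RLE, library totals, TMM without Defa genes), other filters, a fit that is not robust, a replicate block, limma-voom (limma 3.58.1), DESeq2 1.42.0, each mouse left out, other pseudocounts and other transcript lengths. The length of the canonical transcript was added after seeing the data. Named are the 10 genes, of each pathway list every called gene and up to 4 with the highest mean CPM, up to 3 of each marker list, and the 5 genes most like Hes1 and Chga. Genes named because their diets did not overlap (Nrarp, Atoh1, Syt13, Ang4, Mptx2), for their p-values or signs (Foxa2, Ascl2, Id1, Id2, Id3, Itln1, Habp2), because they had no or few counts (Notch3, Hes3, Hey1, Hey2, Pyy, Nts, Insl5, Gal, Vip, Scg3, Vgf), or as an overlapping or absent marker (Fam241b, Cdh5) were chosen after their values were seen. Some genes that this rule names are not reported here, although they stay in the counts and medians of their lists. Fam183b of the granule list was not found under that symbol. Computations used Python 3.11.15, numpy 2.4.6, scipy 1.17.1, pandas 2.3.3 and matplotlib 3.10.9.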

Additional observations from a re-analysis of the deposited data

Results flagged for a closer look

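The 4 mice of each diet were searched for a mouse whose distance to the nearest other mouse was large against the range of the diet (Dixon's test). This covered the 10 genes, the called genes and up to 4 most abundant of each pathway list, the called markers and the marker sums. Other listed genes were not searched. Of 102 groups of 4 searched, 9 held such a mouse, and chance flags about 1 in 20 groups. None of the 10 genes followed here was among them.

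Ghrl stood out in both diets, with 51.8 normalised CPM in control 4 against at most 0.252 in the other control mice, and with 3.93 in zinc deficient 4 against at most 0.253 in the other zinc deficient mice. Slc18a1 was at 48.0 normalised CPM in control 3 against a next highest of 40.3. Rfx3, a factor of endocrine differentiation, was at 3.59 in zinc deficient 3 against 1.68.

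Dll4 was at 28.8 normalised CPM in zinc deficient 2 against a next highest of 21.9, and Spdef was at 125 in zinc deficient 4 against 92.5. Mcm6 was at 20.5 in zinc deficient 1 against 13.6. Summed over the list, tuft cell markers were at 478.9 normalised CPM in zinc deficient 3 against 81.8 in the next mouse, and enterocyte markers at 351.6 in control 3 against 253.2.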

How the results depend on the processing

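The number of genes called, 44, was 11 with library totals alone, 251 without an expression filter, 25 with the fit that is not robust, 28 with limma-voom, 135 with DESeq2, and 8 to 36 with 1 mouse left out (8 without control 2 or without control 4). Of the pathway lists, where 1 gene was called (Sox4), 0 were called with RLE, with the fit that is not robust and with limma-voom, 2 with DESeq2 (Olfm4 and Sox4), 5 without an expression filter (Chga, Hes1, Olfm4, Sox4 and Syt13), and 0 to 1 with 1 mouse left out. Deviations of same-numbered mice correlated at 0.00489 to 0.114, and those of mice with different numbers at -0.211 to 0.183. Controls 1, 2 and 4 correlated best with their own number, and control 3 with zinc deficient 4. These values do not settle whether the replicate numbers pair the mice. With a replicate block, 53 genes and 0 of the pathway lists were called.

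Of 133 fold changes of the followed genes under alternatives, 125 kept direction and side of the threshold. Without an expression filter Hes1 (-0.80, adjusted p = 0.0383) and Chga (-1.64, adjusted p = 0.0256) were called. With library totals alone Jag1 and Sct were both -0.23, against 0.18 and 0.07. With 1 mouse left out Jag1 ranged from -0.01 to 0.46 and Sct from -0.15 to 0.23. The correlated pairs, 1 of 45, were 2 with CPM of library totals (also Notch1 with Rbpj) and 0 with diets centred. The order per length kept 7 to 9 of 9 neighbouring pairs in every setting, a count that covers only genes next to each other in the main order. With the length of the canonical transcript, the mean of Chga was 0.896 TPM, against 0.311 with summed exons. It was then above the means of Notch1 (0.576), Jag1 (0.384) and Rbpj (0.695). The causes were not tested. Depth limits Neurog3 and Neurod1, with 50 and 12 counts in 8 mice.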
